A study of Rattus norvegicus with 30 samples.

Results

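Insig1, Srebf2 and Stard4, genes of cholesterol transport and of the control of its supply, were followed through serum starvation. They were chosen by symbol, as 3 rows of a table of 17353 gene symbols, and all 3 were among the 8940 genes with a mean of at least 1 FPKM (a length-corrected and depth-corrected measure of a transcript's level) that were tested. The cells were the REF line of rat embryonic fibroblasts, untransformed per the labels, and total RNA was sequenced. The control group was kept unstarved, and the other 9 groups were starved of serum for 2, 3, 4, 6, 8, 10, 12, 14 or 16 days, with no other agent named. Each of the 10 groups held 3 biological replicates of this 1 cell line, 30 libraries in all. The set was labelled as covering uptake as well as transport and control, but none of its 3 members is an uptake receptor. Uptake is therefore described only through other genes of the pathway.

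Srebf2 encodes SREBP-2, a transcription factor made as a membrane protein of the endoplasmic reticulum. When sterols are scarce, its escort Scap carries it to the Golgi, where the proteases encoded by Mbtps1 and Mbtps2 release the part that enters the nucleus and switches on genes of cholesterol synthesis and uptake. When sterols are plentiful, the Insig proteins hold Scap and SREBP-2 back in the endoplasmic reticulum. Insig1 and Srebf2 are themselves known targets of SREBPs, so the pathway feeds back on both its brake and its own activator. Stard4 encodes a small soluble carrier that moves cholesterol between membranes and is also a known SREBP-2 target. Serum brings lipoproteins, the main outside source of cholesterol for cultured fibroblasts, together with growth factors, and serum removal takes both away.

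Because Insig1 and Srebf2 were described together as targets of the same factor, the 250 bases before their start sites are shown. They come from RefSeq on build GRCr8, whereas the expression values were made on rn6. Of the 3 members 2 had an entry, Insig1 at chr4:8057770-8058019 on the minus strand and Srebf2 at chr7:115543057-115543306 on the plus strand. Capitals mark matches, on either strand, to ATCACNCCA (the first 9 letters of the sterol regulatory element SRE-1, whose next letter is C; this form was chosen after the windows were seen), CACGTG (an E-box), CCAAT (the NF-Y box) or GGGCGG (a GC box).
Insig1: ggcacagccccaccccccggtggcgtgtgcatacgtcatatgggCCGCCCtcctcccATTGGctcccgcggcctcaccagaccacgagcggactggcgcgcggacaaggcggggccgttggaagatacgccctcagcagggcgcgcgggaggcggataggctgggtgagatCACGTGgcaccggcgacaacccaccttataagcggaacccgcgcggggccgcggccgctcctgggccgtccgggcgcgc
Srebf2: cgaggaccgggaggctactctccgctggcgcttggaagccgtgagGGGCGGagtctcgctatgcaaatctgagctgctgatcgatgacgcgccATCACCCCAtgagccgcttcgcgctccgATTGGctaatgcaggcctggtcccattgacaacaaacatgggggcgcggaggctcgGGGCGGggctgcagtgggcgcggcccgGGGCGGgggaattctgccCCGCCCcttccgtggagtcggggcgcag
The Srebf2 window held ATCACCCCA from 157 to 149 bases before the start, a string that matched in 0.619% of 27457 windows of the same length. The same letters followed by C were in neither window and in 0.215% of all windows. The Insig1 window held CACGTG from 79 to 74 bases before the start, found in 5.79% of all windows. Both windows held CCAAT on the minus strand, read as ATTGG, at 193 to 189 bases before the Insig1 start and 129 to 125 before that of Srebf2. CCAAT on either strand was in 34.3% of all windows and in 13 of the 16 windows found for genes of a list of cholesterol synthesis enzymes. ATCACNCCA was in 0, CACGTG in 1 and GGGCGG in 14 of those 16. GGGCGG was once in the Insig1 window and 4 times in that of Srebf2, and was in 32.4% of all windows and 62.1% of the 6972 windows of genes tested for expression. In those 6972, CCAAT was in 36.5%, CACGTG in 8.63% and ATCACNCCA in 0.387%. No match overlapped another in these 2 windows. These are matches of letters, and binding was not measured.

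The Srebf2 gene also carries a microRNA in an intron, miR-33, known as a repressor of cholesterol efflux. Its RefSeq hairpin lay within the Srebf2 span on GRCr8, and the mature strand at chr7:115593957-115593977 (plus strand) is shown with its seed, bases 2 to 8, in capitals.
rno-miR-33-5p: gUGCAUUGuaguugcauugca
The row for Mir33 was listed at 0 in all 30 libraries, so the table gives no reading of this passenger of Srebf2. An exact 0 in such a table can be a failed estimate. The collagen gene Col1a2 was likewise listed at 0 in every library.

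Read depth was not given, so no counting error can be attached to a value. FPKM sums ran from 582501 to 785072 per library, and 8709 to 8887 genes per library stood at 1 FPKM or more. Of 10 fibroblast markers 6 had a mean of at least 1 FPKM (Col1a1, Col3a1, Fn1, Vim, Pdgfrb and Lum), while Thy1, Pdgfra and Dcn lay under it. The markers of macrophages, endothelium and adipocytes had none of 13 symbols in the table at a mean of 1 FPKM, and those of epithelium had only Krt8. Summed macrophage markers were 7.11 to 7.40 FPKM in control and 0.245 to 2.16 in starved libraries, with Adgre1 at 0. Summed epithelial markers were 10.7 to 12.9 in control and 20.2 to 75.8 in starved libraries. The part of these in the results was not tested. Libraries numbered replicate 1 stood apart from the others within their groups, at -17.8 to -5.79 against 0.765 to 13.0 on the leading principal component once group means were removed. Fits without them are named where a call changed. In bulk RNA, fewer cells with a transcript and less of it per cell cannot be told apart.

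Insig1, the sterol-sensing brake, showed the widest swing of the 3 members. Its level was 25.4, 29.1 and 25.0 FPKM in control replicates 1, 2 and 3 and 157, 179.9 and 168 at day 2. It was 186, 174 and 199 FPKM at day 3, 205, 202 and 229.9 at day 4 and 159, 169.9 and 172 at day 6. Every starved library up to day 6 lay far above the highest control library. At day 8 the level was 203.5, 182 and 178 FPKM, at day 10 it was 275, 260.5 and 264, and at day 12 it was 198, 199 and 216. It then came down to 129, 124 and 126 FPKM at day 14 and 63.0, 74.9 and 74.9 at day 16. The 3 libraries of day 10 were the highest of all 30, and those of day 16 were the lowest of the starved ones. All 27 starved libraries lay above all 3 control libraries.

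Ordered by mean, Insig1 stood highest at day 10 (266 ± 7.47 FPKM, SD, n = 3), followed by days 4, 12, 8, 3, 2, 6, 14 and 16 and control (26.5 ± 2.25). The neighbours in this order from day 4 down to day 6 overlapped in their replicates. Day 10, day 14, day 16 and control were each separated from their neighbours. The mean at day 10 was 10.04-fold and that at day 16 was 2.68-fold the control mean.

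Srebf2, the activator, moved over a narrower range. It was 32.6, 38.4 and 33.9 FPKM in control, 57.8, 67.0 and 57.2 at day 2 and 73.1, 68.99 and 74.99 at day 3. At day 4 it was 77.8, 81.3 and 83.1 FPKM, at day 6 it was 64.2, 67.5 and 77.4 and at day 8 it was 66.4, 71.7 and 74.3. The control libraries were below all of these. The day 4 libraries lay above all of days 3, 6 and 8, which overlapped among themselves. The level was 79.9, 70.4 and 82.4 FPKM at day 10, 65.9, 66.5 and 66.0 at day 12, and 60.7, 49.0 and 52.9 at day 14. At day 16 it was 39.6, 43.3 and 41.8 FPKM, just above the highest control library. The order by mean ran from day 4 (80.7 ± 2.67 FPKM) through days 10, 3, 8, 6, 12, 2, 14 and 16 to control (35.0 ± 3.03). Each neighbour from day 4 to day 14 overlapped the next, and only day 16 and control were set apart from those above them. The highest mean was 2.31-fold the lowest.

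Stard4, the sterol carrier, was the member with the lowest level per kilobase. It was 2.59, 3.28 and 3.52 FPKM in control, 6.21, 9.10 and 6.07 at day 2 and 8.54, 8.56 and 7.38 at day 3. At day 4 it was 7.18, 7.79 and 8.76 FPKM, at day 6 it was 4.71, 6.33 and 4.9985 and at day 8 it was 5.16, 4.07 and 3.47. Day 8 replicate 3 lay within the range of the control libraries. Stard4 was 7.91, 6.91 and 5.12 FPKM at day 10, 2.71, 4.63 and 3.89 at day 12, 2.64, 2.67 and 3.04 at day 14 and 1.29, 1.68 and 1.62 at day 16. The 3 libraries of day 16 were the lowest of all 30, control included. By mean the order ran from day 3 (8.16 ± 0.678 FPKM) through days 4, 2, 10, 6, 8 and 12, control (3.13 ± 0.488) and day 14 to day 16 (1.53 ± 0.209). Only day 16 was free of overlap with its neighbour in this order. The replicates of Stard4 were looser than those of the others, with SDs of 8.07% to 25.8% of the group mean, against 1.94% to 9.67% for Insig1 and 0.470% to 10.98% for Srebf2.

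**Figure D1:**
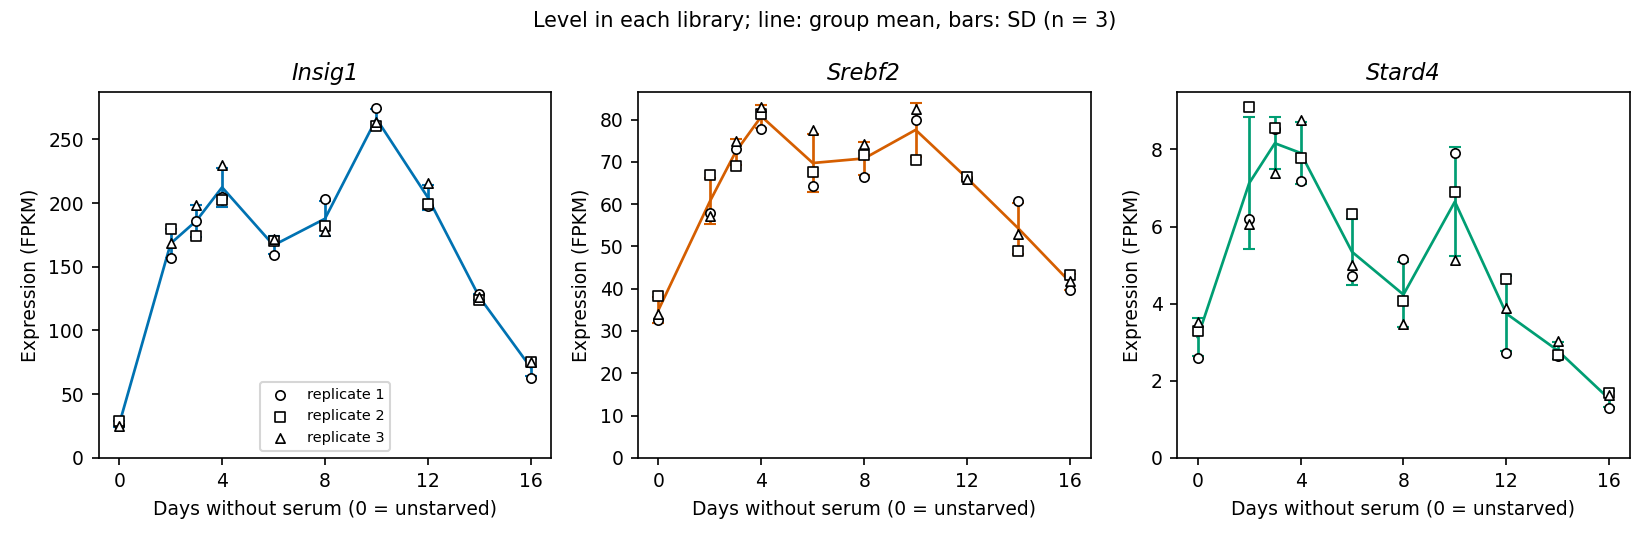
FPKM of Insig1, Srebf2 and Stard4 (y axes, from 0) against days without serum (x axes, 0 for unstarved); each symbol is 1 library, shaped by replicate number, the line passes through the means and bars show the SD of 3 libraries. Insig1 is highest at day 10 (266 FPKM), Srebf2 at day 4 (80.7) and Stard4 at day 3 (8.16), and all 3 come down to day 16.

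The first comparison asked what serum removal did within 2 days. All 3 members rose, in a contrast in which 60.7% of all genes tested passed and 30.7% fell. Changes below are on the log2(FPKM + 1) scale ± SE, from limma over all 30 libraries, with Benjamini-Hochberg adjustment over 8940 genes and a threshold of 0.05. This scale understates the change of low genes such as Stard4. Insig1 rose by 2.62 ± 0.08 (adjusted p = 2.78e-19), Srebf2 by 0.78 ± 0.09 (adjusted p = 1.72e-08) and Stard4 by 0.96 ± 0.17 (adjusted p = 1.85e-05). In FPKM the day 2 mean was 6.35-fold the control mean for Insig1, 1.73-fold for Srebf2 and 2.28-fold for Stard4. All day 2 libraries lay above all control libraries for each member, as they did for 30.6% of genes.

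Between day 2 and day 8 each member passed in at least 1 comparison. From day 2 to day 3 Srebf2 rose by 0.25 ± 0.09 (adjusted p = 0.0418), the 1 member to pass where 7.83% of genes rose. From day 4 to day 6 Insig1 fell by 0.34 ± 0.08 (adjusted p = 0.00439), the 1 member to pass where 6.52% of genes fell. In that step Stard4 stood at -0.49 ± 0.17 (adjusted p = 0.059) and Srebf2 at -0.21 ± 0.09 (adjusted p = 0.133). The Stard4 estimate was thus the larger, though it did not pass. With limma none of the 3 passed from day 3 to day 4 or from day 6 to day 8, where 3.39% and 1.44% of genes did, and in each of these steps 1 of the 3, Insig1, had an unadjusted p under 0.05. Taken from day 4 to day 8, Stard4 fell by 0.78 ± 0.17 (adjusted p = 0.00125, in a contrast in which 9.93% of genes fell). Over the same days Insig1 and Srebf2 changed by -0.18 ± 0.08 and -0.19 ± 0.09 (adjusted p = 0.129 and 0.141).

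At day 10 the level of Insig1 stepped up. From day 8 it rose by 0.50 ± 0.08 (adjusted p = 0.000719), in a step in which 1.19% of all genes rose. Of 20 cholesterol synthesis enzymes, set beside the members further on, 9 also rose in this step and 0 fell (median 0.37). Srebf2 differed by 0.13 ± 0.09 (adjusted p = 0.644) and Stard4 by 0.54 ± 0.17 (adjusted p = 0.117) in that step, so the Stard4 estimate was as large as that of Insig1 but did not pass. Against day 2, day 10 was higher for Insig1 (0.66 ± 0.08, adjusted p = 1.67e-07) and Srebf2 (0.35 ± 0.09, adjusted p = 0.00182), where 38.7% of genes passed. Stard4 differed by -0.08 ± 0.17 (95% interval -0.43 to 0.26).

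After day 10 every member came down. From day 10 to day 12 Insig1 fell by 0.38 ± 0.08 (adjusted p = 0.00562) and Stard4 by 0.69 ± 0.17 (adjusted p = 0.0178), 2 of 3 members where 2.14% of genes fell. Srebf2 stood at -0.22 ± 0.09 in that step and did not pass (adjusted p = 0.156). From day 12 to day 14 Insig1 fell by 0.69 ± 0.08 (adjusted p = 2.39e-06), the 1 member to pass where 2.42% of genes fell. Srebf2 stood at -0.29 ± 0.09 (adjusted p = 0.062) and Stard4 at -0.31 ± 0.17 (adjusted p = 0.492). From day 14 to day 16 Insig1 fell by 0.83 ± 0.08 (adjusted p = 1.55e-07) and Srebf2 by 0.37 ± 0.09 (adjusted p = 0.0173), in a step in which 0.817% of genes fell, while Stard4 stood at -0.58 ± 0.17 (adjusted p = 0.0718).

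Between day 12 and day 16 as a whole, all 3 members fell, where 6.33% of genes did. Insig1 fell by 1.52 ± 0.08 (adjusted p = 1.95e-13), Srebf2 by 0.66 ± 0.09 (adjusted p = 3.07e-06) and Stard4 by 0.89 ± 0.17 (adjusted p = 0.000363). For each member all libraries of day 16 were below all of day 12, as they were for 12.0% of genes. From day 2 to day 16 the falls were 1.24 ± 0.08 for Insig1, 0.53 ± 0.09 for Srebf2 and 1.67 ± 0.17 for Stard4 (adjusted p = 1.39e-12, 1.36e-05 and 6.68e-09), in a contrast in which 20.5% of genes fell.

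By day 16 the members stood on different sides of the control level. Insig1 was still higher than control by 1.39 ± 0.08 (adjusted p = 2.77e-14) and Srebf2 by 0.25 ± 0.09 (adjusted p = 0.0134), in a contrast in which 32.4% of genes rose. Stard4 was lower by 0.70 ± 0.17 (adjusted p = 0.000569), and 35.0% of genes fell. The Srebf2 call was narrow and was lost without control replicate 1 (0.20, adjusted p = 0.0705), without day 16 replicate 2 (0.22, adjusted p = 0.0541) and after rescaling each library to the same FPKM sum (0.18, adjusted p = 0.179). The day 16 means were 2.68-fold, 1.19-fold and 0.488-fold the control means of Insig1, Srebf2 and Stard4. Stard4 did not keep a steady distance from control before that. At day 10 it was higher than control by 0.88 ± 0.17 (adjusted p = 4.83e-05, where 33.2% of genes rose), with no overlap. The differences of 0.34 ± 0.17 at day 8, 0.19 ± 0.17 at day 12 and -0.12 ± 0.17 at day 14 did not pass (adjusted p = 0.0756, 0.332 and 0.536, where 33.4%, 31.5% and 31.4% of genes rose). Every contrast with control uses the same 3 control libraries.

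A straight line over the 27 starved libraries fell for all 3 members, as it did for 28.9% of genes. The fitted change over 14 days was -0.83 ± 0.24 for Insig1 (adjusted p = 0.00472), -0.53 ± 0.13 for Srebf2 (adjusted p = 0.000887) and -1.58 ± 0.18 for Stard4 (adjusted p = 1.33e-08). The lines of Insig1 and Srebf2 rested on the last time point. Without day 16 they were -0.14 (adjusted p = 0.594) and -0.23 (adjusted p = 0.138). Both also bent downward, with quadratic terms, given as the departure over 7 days from the middle of the course, of -0.98 ± 0.13 and -0.51 ± 0.07 (adjusted p = 1.2e-06 and 1.47e-06), where 15.9% of genes had a negative term past the threshold. That of Stard4 was -0.37 ± 0.15 (adjusted p = 0.0534). Over all genes 2377 rose and 2587 fell with day, and 1573 and 3256 did once libraries were rescaled to the same FPKM sum. For the quadratic term the calls were 1435 positive (16.1% of genes) and 1420 negative, and 1046 and 1725 after that rescaling. The 3 members kept their direction.

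Whether the members changed by different amounts was tested on the ratio of their FPKM within each library, in 9 comparisons adjusted together. In control, Insig1 stood at 0.759 ± 0.021 of the Srebf2 level (SD, n = 3), and at day 2 at 2.78 ± 0.143. It was highest at day 10 (3.45 ± 0.251) and fell to 1.70 ± 0.104 at day 16. The brake was thus below the activator per kilobase in every control library and above it in every starved one. For Insig1 against Stard4 the ratio rose from 8.60 ± 1.38 in control to 24.2 ± 4.08 at day 2 and 46.6 ± 2.12 at day 16, with its highest and loosest mean at day 12 (57.2 ± 15.02). For Stard4 against Srebf2 it went from 0.0896 ± 0.0127 in control to 0.116 ± 0.0169 at day 2 and 0.0367 ± 0.00359 at day 16.

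Over days 2 to 16 Stard4 fell more than both other members. The Stard4/Srebf2 ratio changed by -1.47 (log2, fitted over 14 days) and the Insig1/Stard4 ratio by 1.17. Each had a two-sided permutation p of 1e-05, the smallest that 100000 permutations of day over 27 libraries can give, and an adjusted p of 4.5e-05. The Insig1/Srebf2 ratio changed by -0.30 (permutation p = 0.065, adjusted p = 0.1). For day 2 against control and day 16 against day 2 the ratios of all 3 pairs were free of overlap between groups. Each of these 6 contrasts gave an exact two-sided permutation p of 0.1, the smallest that 3 against 3 libraries allow. The 3 pairs share genes, and the share of other gene pairs without overlap was not computed. For Stard4/Srebf2 the gap at day 2 was thin, from 0.104 in the highest control library to 0.106 in the lowest day 2 library. At day 2 the ratio changed by 1.87 (log2) for Insig1/Srebf2, 1.49 for Insig1/Stard4 and 0.38 for Stard4/Srebf2. From day 2 to day 16 the changes were -0.71, 0.96 and -1.66.

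**Figure D2:**
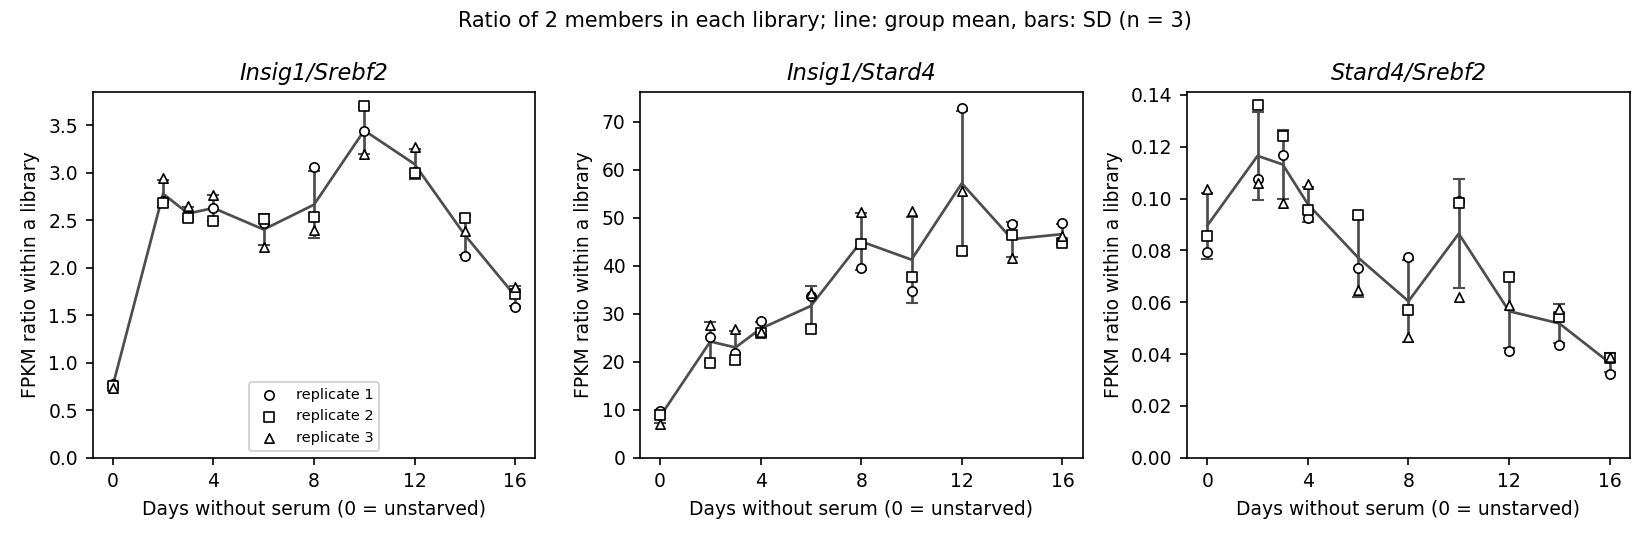
Ratio of the FPKM of 2 members within a library (y axes, from 0) against days without serum (x axes); each symbol is 1 library, the line passes through the means and bars show the SD of 3 libraries. Insig1/Srebf2 goes from 0.759 in control to 3.45 at day 10 and back to 1.70 at day 16, while Stard4/Srebf2 ends at 0.0367, below its control value of 0.0896.

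The other genes of SREBP control are given by their counts. Of 12 listed genes 10 were tested, and at day 2 there were 3 that rose, 1 that fell and 6 that did not pass, where 60.7% of all genes passed and 30.7% fell, with a median change of 0.22 beside 4.36e-05 over all genes tested. Those that rose were Scap, the escort of SREBP-2 (21.9 ± 2.41 to 32.1 ± 2.73 FPKM, adjusted p = 6.42e-05), Mbtps1, the site-1 protease (44.6 ± 3.70 to 65.5 ± 7.34, adjusted p = 7.93e-06), and the ubiquitin ligase Syvn1 (17.9 ± 2.31 to 25.7 ± 2.80, adjusted p = 0.027). Erlin1, of the endoplasmic reticulum membrane, fell from 16.1 ± 1.63 to 7.41 ± 0.142 FPKM (adjusted p = 2.2e-08). With upper quartile scaling 6 rose and 1 fell, where 3239 of all 8940 genes tested rose and 2252 fell. Srebf1, which encodes the sister factor SREBP-1, was 11.1 ± 1.44 FPKM in control and 11.9 ± 1.25 at day 2 (adjusted p = 0.449). Insig2, the second Insig, was 12.9 ± 4.19 and 15.4 ± 6.72 FPKM (adjusted p = 0.485). Both were picked after their values were seen, as the sister genes of Srebf2 and Insig1.

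After day 12 few of them moved. Of these 10 genes 1 rose and none fell between day 12 and day 16, with a median change of 0.15 beside 0.02 over all genes, of which 6.78% rose. The ligase gene Rnf145 rose from 28.6 ± 1.22 to 33.2 ± 1.40 FPKM (adjusted p = 0.0464). That call was lost without day 12 replicate 1 or 2 or any 1 of the day 16 libraries, where 0 of 10 passed, and without day 12 replicate 3 there were 3 calls, 2 up and 1 down. The other 3 genes with the smallest p did not pass: Mbtps1 (66.7 ± 7.73 and 78.3 ± 4.05 FPKM, adjusted p = 0.0832), Srebf1 (17.9 ± 2.59 and 14.9 ± 0.668, adjusted p = 0.124) and Erlin2 (10.9 ± 0.875 and 13.0 ± 1.18, adjusted p = 0.15). For the line over days 2 to 16, 3 rose and 2 fell (Scap, Mbtps1 and Srebf1 up, Rnf145 and Syvn1 down), where 26.6% of all genes rose and 28.9% fell. Once libraries were rescaled to the same FPKM sum, none rose and 3 fell, where 1573 of all 8940 genes rose and 3256 fell.

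Genes of sterol uptake, storage and transport, the functional neighbours of Stard4, went in both directions. Of 27 listed 25 were tested, and 10 rose, 3 fell and 12 did not pass at day 2 (median 0.11), where 60.7% of all genes passed and 30.7% fell. The lipoprotein receptor gene Vldlr rose from 71.0 ± 4.08 to 187 ± 20.04 FPKM (adjusted p = 5.44e-13), and Npc2, a lysosomal sterol carrier, from 149 ± 4.69 to 428 ± 15.8 (adjusted p = 1.5e-14). The caveolar protein gene Cav1 rose from 221 ± 12.5 to 402 ± 19.2 FPKM (adjusted p = 4.43e-11) and the lysosomal acid lipase gene Lipa from 21.4 ± 0.9746 to 38.6 ± 0.60 (adjusted p = 2.79e-10). Between day 12 and day 16, 2 rose and 2 fell, with a median of -0.04, where 6.78% of all genes rose and 6.33% fell. Vldlr rose from 114 ± 13.7 to 146 ± 12.2 FPKM (adjusted p = 0.00601) and Lipa from 19.7 ± 1.78 to 23.9 ± 0.451 (adjusted p = 0.0126) while the members fell. Npc2 fell from 1237 ± 44.1 to 885 ± 50.5 (adjusted p = 0.000105) and the oxysterol-binding protein gene Osbpl2 from 45.4 ± 3.64 to 36.3 ± 3.59 (adjusted p = 0.0332). Over days 2 to 16, 7 of 25 rose and 7 fell with day, near the 26.6% and 28.9% of all genes. After rescaling to the same FPKM sum 4 rose and 9 fell, where 1573 of all 8940 genes rose and 3256 fell. The START-domain relatives of Stard4 in this list, Stard3 and Stard5, did not pass at day 2 (30.4 ± 1.90 and 29.3 ± 2.37 FPKM, adjusted p = 0.661, and 5.95 ± 0.668 and 4.28 ± 1.22, adjusted p = 0.0722). They were picked for their kinship after their values were seen.

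Most genes of sterol efflux could not be tested. Of 8 genes of sterol efflux and oxysterols 1 had a mean of at least 1 FPKM, Nr1h2, which encodes the oxysterol receptor LXR-beta. Nr1h2 rose from 37.2 ± 4.00 to 54.7 ± 3.58 FPKM at day 2 (adjusted p = 2.42e-06) and was 61.7 ± 3.93 and 57.8 ± 2.44 at days 12 and 16 (adjusted p = 0.561). The transporter gene Abca1 had a mean of 0.383 FPKM and a highest value of 1.68. Cyp27a1 and Cyp7b1 were listed at 0 in every library, which can be a failed estimate and is not read as low expression.

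Set beside the members were 20 cholesterol synthesis enzymes, whose changes at day 2 ran from Lbr (-0.66 ± 0.16) to Tm7sf2 (5.42 ± 0.11). Next to these ends came Fdft1 (0.25 ± 0.07) and Lss (3.08 ± 0.09). The members lay inside this range, which is too wide for that to mark a likeness. At day 2, 19 enzymes rose and 1, Lbr, fell (median 2.09), where 60.7% of all genes passed and 30.7% fell. A rise larger than that of Insig1 was seen in 7 of the 20, against 18 for Srebf2 and 18 for Stard4. The 4 enzymes with the smallest p, both at day 2 and after day 12, were Tm7sf2, Cyp51, Hmgcs1 and Dhcr7. Dhcr7, the last reductase of one branch, rose from 9.12 ± 0.39 to 69.6 ± 7.28 FPKM (adjusted p = 2.22e-19). Between day 12 and day 16, 19 enzymes fell (median -1.51), where 6.33% of all genes did, with Insig1 at -1.52. Over days 2 to 16 all 20 fell with day, where 28.9% of all genes did.

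At day 16 the enzymes lay on both sides of the control level. Against control 10 were higher, 8 were lower and 2 did not pass, where 32.4% of all genes rose and 35.0% fell. Of the 20, 19 had a smaller change than Insig1, the exception being Tm7sf2 (3.52 ± 0.11). Of the 20, 3 were further below control than Stard4, among them Hsd17b7 (-1.01 ± 0.20) and Lbr (-0.79 ± 0.16). As a median over the enzymes, the ratio to the control mean was 4.39 at day 2, 3.12 at day 8, 4.44 at day 10 and 1.20 at day 16. Of the enzymes 7 peaked at day 2, 7 at day 4 and 2 at day 10.

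**Figure D3:**
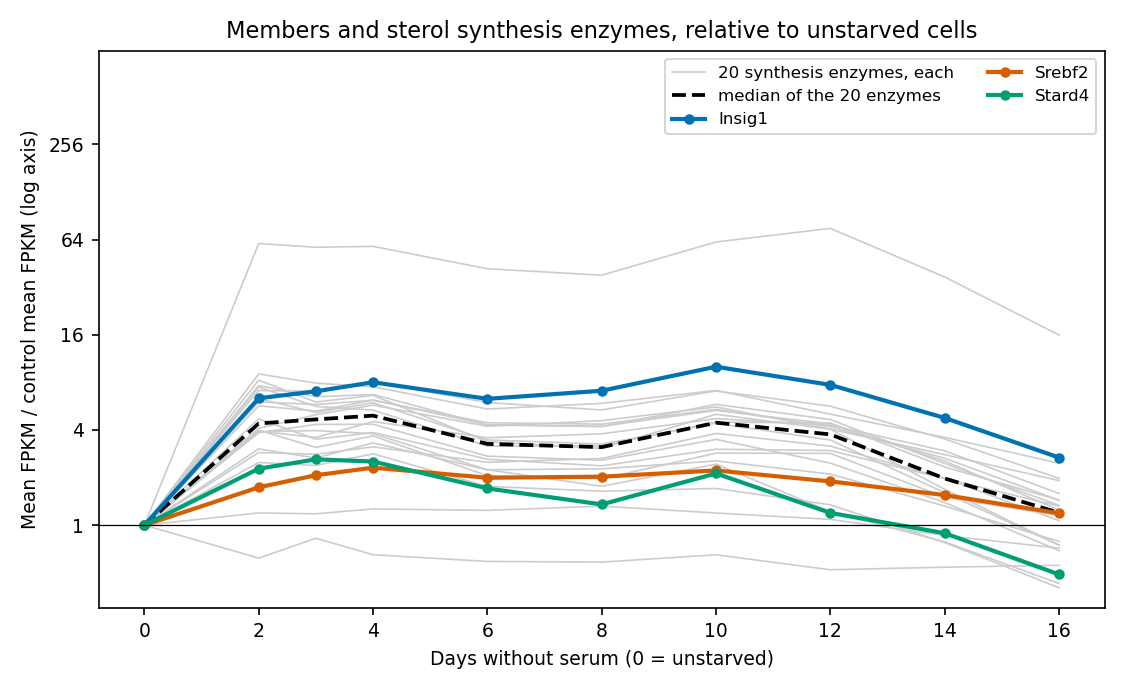
Group mean FPKM divided by the control mean (y axis, log scale) against days without serum (x axis), for the 3 members (coloured), each of 20 cholesterol synthesis enzymes (grey) and the enzymes' median (dashed). Insig1 reaches 10.04 at day 10 and ends at 2.68, Srebf2 stays between 1.19 and 2.31, and Stard4 ends at 0.488; the grey line far above the rest is Tm7sf2.

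**Figure D4:**
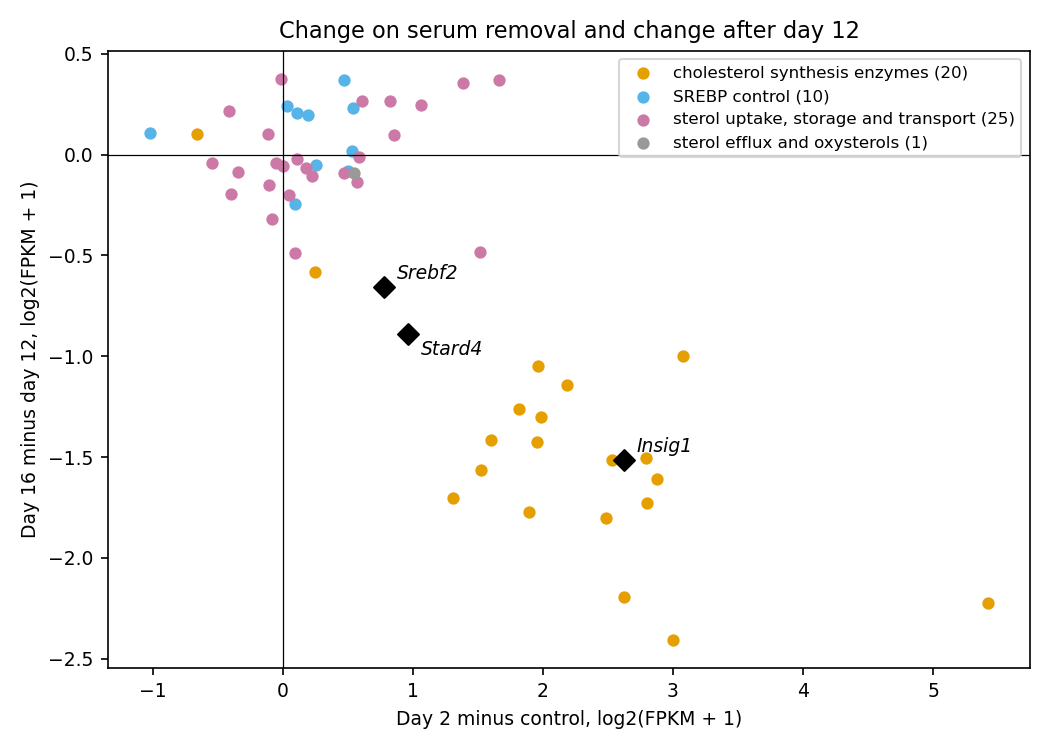
Change from control to day 2 (x axis) and from day 12 to day 16 (y axis), both on the log2(FPKM + 1) scale, for the members (black diamonds) and the tested genes of the 4 lists, 1 point per gene. Insig1 (2.62, -1.52) lies among the synthesis enzymes. Srebf2 (0.78, -0.66) and Stard4 (0.96, -0.89) lie nearer 0 on both axes than the enzymes other than Fdft1 and Lbr. The genes of SREBP control and transport gather near 0 on the y axis, above Srebf2 and Stard4. Some of these genes, such as Npc2 (1.52, -0.48), lie to the right of Srebf2 and Stard4.

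The genes whose course was most like each member's were found by Pearson's r over the 10 group means of log2(FPKM + 1), among 7170 genes with a mean of at least 5 FPKM. These r values are descriptions over 10 points from the same 30 libraries. For Insig1 they were the squalene epoxidase gene Sqle (r = 0.987), Ccng1 (0.982), the sterol desaturase gene Sc5d (0.98), Rras (0.979) and Anxa7 (0.978). For Srebf2 they were Sc5d (0.985), Bcl2l1 (0.977), Brd1 (0.9754), the fatty acid desaturase gene Scd2 (0.969) and Gna12 (0.969). Sc5d was thus near the top for both, going from 17.9 ± 1.68 FPKM in control to 73.1 ± 12.4 at day 2 and 34.2 ± 3.96 at day 16.

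Stard4 had other genes closest to it. Among its 5 closest were the sterol reductase gene Hsd17b7 (r = 0.989), the fatty acid synthase gene Fasn (0.973) and the acetoacetyl-CoA synthetase gene Aacs (0.972). These 3 had a lower mean at day 16 than in control, as Stard4 did. Hsd17b7 went from 7.19 ± 1.37 FPKM in control to 28.0 ± 5.42 at day 2 and 3.08 ± 0.69 at day 16. Among the members themselves, r over the 10 group means was 0.954 for Insig1 and Srebf2, 0.76 for Stard4 and Srebf2 and 0.624 for Insig1 and Stard4.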

How the data were processed

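Total RNA of 30 libraries was sequenced, and the analysis started from the authors' deposited FPKM table, for which the submitters' processing notes name TopHat2 2.1.1, Cufflinks, Cuffnorm 2.2.1 and build rn6. Annotation, filters and scaling across libraries are not given in the sources used here. No counts were held and whole reads could not be recovered, so depth is unknown.

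Groups followed the sample titles. Values were analysed as log2(FPKM + 1) for the 8940 genes with a mean of at least 1 FPKM, with limma 3.58.1 in R 4.3.3 (moderated, with a mean-variance trend). One fit of 10 group means gave the contrasts, and a line or parabola in day over 27 libraries gave slopes and quadratic terms. All tests were two-sided. Ratios were tested by permutation in Python 3.11.15 with SciPy 1.17.1. Overlap means overlap of replicate ranges. Fits were tested on simulated data.

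Named genes were the members, the 4 genes of each list with the smallest p at day 2 and after day 12, and the 5 genes most like each member. Some genes that this rule picks are not reported here. The members and lists were chosen with earlier results of these data known. Alternatives were other pseudocounts, filters, scalings, a replicate block and left-out libraries or time points. No label ties a replicate number to a shared day or culture, so the report uses no block.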

Additional observations from a re-analysis of the deposited data

How the results depend on the processing

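Over 579 refits of the members' and ratios' results, 559 kept both direction and side of the threshold, 5 lost the call, 15 gained it and none changed direction. The gains were all in the quadratic term of Stard4 (8 of the 15 on leaving out 1 library), which passed with log2(FPKM + 0.1) (-0.54), quantile normalization (-0.45), rescaling each library to the same sum (-0.47) and without time point day 3, 6 or 8 (-0.41, -0.45 and -0.56). Leaving out single libraries it ran from -0.45 to -0.29. The calls lost were the Insig1 and Srebf2 slopes without day 16 (-0.14 and -0.23) and Srebf2 at day 16 against control after rescaling (0.18) and without either of 2 libraries (range 0.20 to 0.31 over 6).

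Among the lists, SREBP control at day 2 had 7 calls under upper quartile scaling in place of 4. After day 12 it had 2 with upper quartile scaling or quantile normalization, 0 with replicates 2 and 3 only or with only the 2 groups compared, and 0 to 3 without single libraries. For its slope it had 3 calls after rescaling (0 rose and 3 fell, in place of 3 and 2) and 3 without day 3 or 16 (1 rose and 2 fell). Transport genes after day 12 had 1 in place of 4 with only the 2 groups compared. Efflux genes without a filter had 3, 1 and 2 calls at day 2, after day 12 and for the slope, and for the slope 0 after rescaling or without day 3.

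Upper quartile scaling moved the median of all genes at day 2 to 0.11 and rescaling that of the slope to -0.14 (log2), shifts smaller than the members' changes there. With a replicate block, the quadratic term of Stard4 passed (-0.37, adjusted p = 0.0487) and SREBP control had 2 calls after day 12; no other call of a member changed. Deviations from group means correlated across genes by 0.0773 to 0.727 between libraries numbered 1, -0.206 to 0.323 between those numbered 2 and -0.111 to 0.446 between those numbered 3. Of 30 libraries 23 were most like their own number, a hint from the data and not from the design.

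The depth behind the values is unknown, which limits Stard4 most, being under 10 FPKM in every library.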
